A study of Homo sapiens with 12 samples.

Results

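HL60 cells that carried the TFEB vector but had not been induced were compared with HL60 cells that carried the empty vector, in the 6 vehicle libraries of a series of 12. The 6 were taken by their column names: 3 libraries labelled TFEB vehicle and 3 labelled EV vehicle. HL60 is an established human acute myeloid leukaemia line of promyelocytic character, grown here in RPMI-1640 with 10% fetal bovine serum. The vectors are labelled pRRL-EV-puro (EV, empty vector) and pRRL-TFEBS211A-puro (TFEB, the S211A form of the transcription factor TFEB). The other 6 libraries are 3 of each line given doxycycline at 1 ug/ml for 48 h. They are used here to share the estimate of the spread and to define which genes TFEB raises when it is induced. They also enter the means that choose the genes tested and the genes used for scaling. The series description calls the triplicates biologically independent. The treatment protocol in the labels lists doxycycline for each sample, so the vehicle status rests on the titles and treatment labels. The labels do not say whether each line is a clone or a pool of transduced cells.

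TFEB belongs to the MiT/TFE family with TFE3, MITF and TFEC. These basic helix-loop-helix leucine zipper factors bind E-box-like motifs in the promoters of lysosomal and autophagy genes. In fed cells the kinase mTORC1 phosphorylates TFEB on serines, and 14-3-3 proteins then hold it in the cytoplasm. Serine 211 is the main 14-3-3 site, and its change to alanine lets TFEB enter the nucleus. HL60 cells are arrested near the promyelocyte stage, when the azurophil (primary) granules are filled and before the specific granules form. The line is known for MYC amplification and for an activating NRAS mutation.

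The vector's coding sequence differs from that of the endogenous gene, so far as the label says, at codon 211. The stretch around that codon is shown because a per-gene value in the TFEB line sums reads of the endogenous gene and of the vector. It comes from the GENCODE 29 transcript TFEB-201, whose longest open reading frame codes for 476 residues, with codon 211 (serine) in capitals.

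TFEB codon 211: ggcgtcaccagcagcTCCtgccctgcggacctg

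S211A counts residues from the first methionine of that frame. The deposited values do not separate the alleles, so a TFEB value of the TFEB line below is the sum of both sources. By the labels, a TFEB value of the EV line is that of the endogenous gene alone.

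The 6 libraries held 7769481 to 22488047 recovered reads, the least in TFEB vehicle replicate 1 and the most in EV vehicle replicate 2. The deposited values are read numbers divided by 1 factor per library. On that scale the totals ran from 10372464 to 22302095 in EV vehicle and from 7095077 to 12242929 in TFEB vehicle. Genes of the mitochondrial genome took 23.8 ± 2.77% and 26.6 ± 2.82% of the values (SD, n = 3 each). Genes with a mean value under 200 took 6.19 ± 1.52% in EV vehicle and 8.31 ± 2.45% in TFEB vehicle. The level of expressed nuclear genes, set by the median ratio of the 7290 with a mean of at least 200, ran from 0.625 in TFEB vehicle replicate 1 to 2.21 in EV vehicle replicate 2. Differences are therefore given on the deposited scale and after dividing each library by this ratio (expressed-gene scaling). Levels are given as reads per 1000000 nuclear reads (RPM), that is, without the genes of the mitochondrial genome. Replicates differed by more than counting error, with chi-square values of 8.38 to 20.1 for each degree of freedom in the 6 within-group pairs.

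MPO, the myeloperoxidase of azurophil granules, took the largest share of reads of any nuclear gene. Its level was 8814, 10627 and 7060.4 RPM in EV vehicle replicates 1 to 3 and 8185, 9583 and 7530.4 RPM in TFEB vehicle replicates 1 to 3. Its mean share of nuclear reads over the 6 libraries was 0.863 ± 0.133% (SD, n = 6). MPO was highest in replicate 2 of both lines, and the range of the lines overlapped. The level of the long noncoding nuclear RNA MALAT1 came next, at 8076 ± 1475 RPM. Translation genes filled much of the rest: the elongation factors EEF1A1 and EEF2 were at 7466 ± 718 and 5673 ± 548 RPM. Of the 25 most abundant genes, 12 were ribosomal proteins. Others were the poly(A)-binding protein PABPC1, the ribosome scaffold GNB2L1 (RACK1), the glycolytic enzyme GAPDH, the iron-storage chain FTL, the actin ACTB and the RNA-binding YBX1. The structured RNAs RN7SK and RN7SL1, parts of the 7SK and signal recognition particles, were at 5933 ± 2217 and 5726 ± 1056 RPM. MTATP6P1 is a nuclear copy of a mitochondrial gene, at 5287 ± 1090.4 RPM, and reads of near-identical copies cannot be assigned with certainty.

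Abundance was spread over many genes. The 10 most abundant nuclear genes took 6.41 ± 0.414% of nuclear reads, the top 25 took 11.6 ± 0.730%, the top 100 took 23.4 ± 1.39% and the top 1000 took 52.4 ± 2.58% (SD, n = 6). Protein-coding genes of the nucleus took 69.0 ± 3.43% of all values and the mitochondrial genome 25.2 ± 2.93%. Pseudogenes took 1.71 ± 0.323%, lincRNAs 1.53 ± 0.246% and antisense genes 1.25 ± 0.161%. A deposited value of at least 10 was reached in all 6 libraries by 17812 genes, of at least 200 by 4961 and of at least 1000 by 778.

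Per kb of exon the order shifted towards short genes. FTL was at 3959.9 ± 515 RPM per kb, MPO at 2448 ± 376 and RPS18 at 2047 ± 162. The linker histones HIST1H1C, HIST1H1E and HIST1H1B were at 1434 ± 291, 1427 ± 268 and 1336 ± 262 RPM per kb. The core histone HIST1H2BK headed this ranking at 7117 ± 2556, with a listed exonic length of 0.381 kb. Lengths come from GENCODE 29, matched by gene ID for 90.5% of the 57820 genes. The sources used here do not name the annotation behind the counts, so a gene whose model has changed has a wrong level per kb.

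Azurophil granule genes were the most abundant of the lineage lists. Of 16 listed, 11 had a mean deposited value of at least 200 in the vehicle libraries. After MPO the highest were SRGN, the proteoglycan that packs granule proteins, LYZ (lysozyme) and PRTN3 (proteinase 3). SRGN was at 807, 729.9 and 894 RPM in EV vehicle replicates 1 to 3 and 602, 799 and 926 RPM in TFEB vehicle replicates 1 to 3. LYZ was at 773, 592 and 442 RPM in EV vehicle replicates 1 to 3 and 646, 536 and 435 RPM in TFEB vehicle replicates 1 to 3. The serine protease ELANE (neutrophil elastase) was at 338, 420.1 and 298 RPM in EV vehicle replicates 1 to 3 and 303, 419 and 287 RPM in TFEB vehicle replicates 1 to 3. LYZ was highest in EV vehicle replicate 1 and ELANE in EV vehicle replicate 2, with overlapping ranges of the lines for both. AZU1 (azurocidin), CTSG (cathepsin G), the membrane protein MS4A3 and the protease inhibitor CST7 ranged over 137 to 162, 76.98 to 103, 239 to 329 and 150.2 to 214 RPM. The defensins were near 0: DEFA1 was listed at 0 in all 6 libraries, DEFA3 in 5 of them, and DEFA4 reached 3.65 deposited units at most. DEFA1 and DEFA3 are near-identical copies, so their counts are uncertain. The summed level of the list ran from 9859 to 13812 RPM in EV vehicle and from 10397 to 12754 RPM in TFEB vehicle.

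Genes of later granulocytes were mostly low. Of 24 listed, 18 had a mean value under 50. The specific granule proteins LTF (lactoferrin), LCN2, CAMP and MMP8 were at 1.38, 1.32, 1.29 and 0.914 RPM per kb. Markers of other cell types, described below, had a median of 0.977. Exceptions were CSF3R, the receptor of granulocyte colony-stimulating factor, at 258 to 321 RPM and the nuclear myeloid protein MNDA at 85.8 to 112 RPM. The secreted glycoprotein CHI3L1 was at 49.7 to 122 RPM and the chemokine receptor CXCR2 at 21.1 to 28.8. CHI3L1 was lowest in replicate 3 of both lines. In the phagocyte oxidase, NCF4, CYBA, CYBB and the GTPase RAC2 were at 72.5, 31.7, 20.2 and 30.9 RPM per kb. The cytosolic subunit NCF1 stood at 1.11, and it has near-identical copies that make its count uncertain.

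Monocyte and macrophage genes were mixed. The highest were CD4, at 105, 118 and 111 RPM in EV vehicle replicates 1 to 3 and 109, 109 and 77.8 RPM in TFEB vehicle replicates 1 to 3, then the endotoxin receptor TLR4 at 56.4 to 69.4 RPM. CSF1R, the receptor of macrophage colony-stimulating factor, at 24.1 to 36.5 RPM, and the Fc receptor FCGR1A, at 28.5 to 31.5 RPM, followed with overlapping ranges. Per kb FCGR1A was at 9.87, CSF1R at 5.94 and TLR4 at 4.84 RPM per kb. The endotoxin co-receptor CD14 and the scavenger receptor CD163 were at 2.69 and 0.930, and MRC1 was listed at 0 in all 6 libraries. The gene ID of MRC1 had no exonic length in GENCODE 29. Whether its 0 reflects expression or the gene model therefore cannot be said. Of 25 genes, 15 had a mean value under 50.

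Transcription factors of early myeloid cells were abundant. RUNX1 was at 625, 685 and 608 RPM in EV vehicle replicates 1 to 3 and 567, 611 and 584 RPM in TFEB vehicle replicates 1 to 3. MYB was at 632, 639.7 and 625 RPM in EV vehicle replicates 1 to 3 and 545, 609 and 575 RPM in TFEB vehicle replicates 1 to 3. SPI1 (PU.1), the master factor of the myeloid lineages, was at 343, 372 and 314 RPM in EV vehicle replicates 1 to 3 and 322, 346 and 334 RPM in TFEB vehicle replicates 1 to 3. The ranges of the lines overlapped for RUNX1 and SPI1. For MYB the 3 TFEB libraries were below the 3 EV libraries in RPM, but the lines overlapped on expressed-gene scaling, where the log2 difference was -0.081 (SE 0.12). In these bulk samples fewer cells of a type and less RNA per cell cannot be told apart. ETV6, IKZF1 and the repressor GFI1 ranged over 255 to 358, 246 to 311 and 183 to 249 RPM. Within the C/EBP family the levels per length were 20.7 RPM per kb for CEBPB, 16.7 for CEBPE, which serves late granulocytes, 9.29 for CEBPD and 1.24 for CEBPA, which serves the granulocyte progenitor. The factors HOXA9, GATA1 and TAL1 stood at 0.449, 0.595 and 0.654 RPM per kb. Of the 24 factors listed, 16 had a mean value of at least 200.

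Surface genes were led by receptors of proliferating and myeloid cells. TFRC (transferrin receptor) ranged over 382 to 639.9 RPM, the hyaluronan receptor CD44 over 419 to 459.5, SPN (CD43) over 239.5 to 349 and ANPEP (CD13) over 162 to 237. The receptor kinase FLT3 was at 81.7 to 98.8 RPM and CD33 at 79.8 to 97.8 RPM. The stem and progenitor markers CD34, KIT and THY1 were at 0.401, 0.728 and 0.668 RPM per kb. Class I HLA genes were abundant, with HLA-B at 651 to 780.3 RPM and HLA-C at 544 to 651. B2M, the class I light chain, was at 458 to 757 RPM. The class II genes HLA-DRA and HLA-DPA1 were at 2.94 and 0.605 RPM per kb, beside CD74, the invariant chain, at 84.4.

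Markers of other cell types set the low end of the scale. In 5 lists (B cells, T and NK cells, erythroid and megakaryocytic cells, eosinophils, basophils and mast cells, and epithelial, endothelial and stromal cells), 48 markers had an exonic length. Their median was 0.977 RPM per kb, from 0.106 to 12.5, and 47 of 48 were under 5. The granule protein NKG7 was the exception, at 9.54 to 14.1 RPM. The B-cell marker MS4A1 was at 0.872 RPM per kb, the T-cell gene CD3E at 0.836, the globin HBB at 0.791 and the keratin KRT18 at 0.893. Very long genes that myeloid cells are not known for lay at the same level: TTN (titin) at 0.680 RPM per kb, NEB (nebulin) at 1.23 and MUC16 at 0.6004. A large deposited value for such a gene therefore corresponded to about the level per kb of a marker of another cell type. By list, the medians were 78.8 RPM per kb for azurophil granule genes, 25.6 for the oxidase, 16.7 for the transcription factors and 13.02 for surface genes. For specific granule genes the median was 1.26 and for monocyte genes 1.69.

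**Figure D1:**
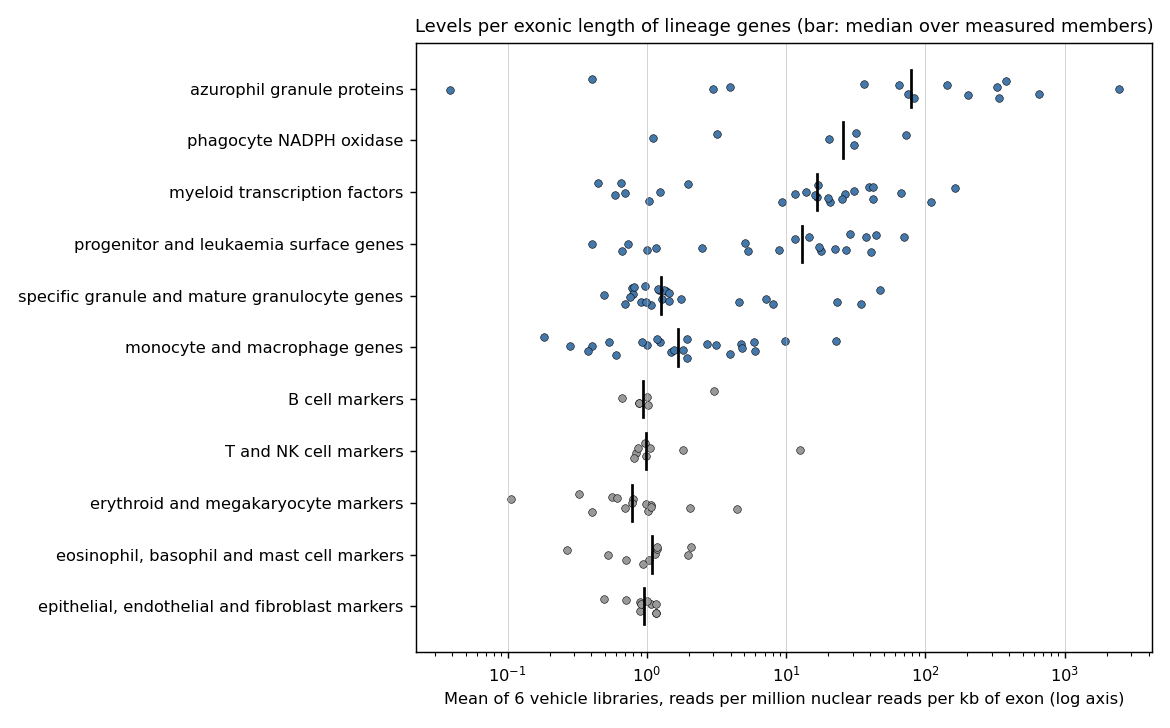
Mean level of each lineage gene over the 6 vehicle libraries, in RPM per kb of exon on a log axis, by list (points: genes with a level above 0; bar: median over all measured members, zeros included). Azurophil granule genes reach 2448 RPM per kb, while the grey lists of other cell types have medians from 0.784 to 1.10.

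Genes at the loci HL60 is known for were read next. MYC was at 2108, 2729.8 and 3093 RPM in EV vehicle replicates 1 to 3 and 1779, 2420.5 and 3042 RPM in TFEB vehicle replicates 1 to 3, which is 843 RPM per kb. NRAS was at 80.7 to 94.6 RPM and CDKN2A, the p16 and ARF locus, at 25.1 to 37.7. Proliferation and metabolic genes were high in both lines. The mitotic genes MKI67 and TOP2A were at 1210.02 ± 97.4 and 358 ± 74.9 RPM (SD, n = 6), the replicative helicase subunit MCM2 at 284 ± 20.8, the nucleolar proteins NCL and NPM1 at 2154 ± 386 and 2138 ± 169, and the glycolytic LDHA at 879 ± 54.9. The chaperones CALR and HSPA8 were at 1931 ± 223 and 997 ± 146 RPM, the stress factors ATF4 and ATF5 at 1029.8 ± 119 and 1146 ± 104, and the sterol regulator SREBF2 at 649 ± 86.7.

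Lysosomal genes, the known TFEB targets, had a measurable baseline. The peptidase TPP1 was at 439 ± 26.3 RPM (SD, n = 6), the lysosomal membrane protein LAPTM5 at 367 ± 70.8, the proton pump subunits ATP6V1G1 and ATP6V1F at 153 ± 25.3 and 91.3 ± 6.85, and the autophagy receptor SQSTM1 (p62) at 100.3 ± 5.66. RRAGD, the Rag GTPase that TFEB is known to raise, was at 92.2 ± 4.53 RPM. Of 45 lysosomal hydrolases, 28 had a mean value of at least 200, as did 25 of 35 autophagy genes and 12 of 16 V-ATPase genes.

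TFEB itself was compared first. Its deposited values were 129, 196 and 110.4 in EV vehicle and 105, 118 and 149 in TFEB vehicle, replicates in order 1 to 3. EV vehicle replicate 2 was the highest and TFEB vehicle replicate 1 the lowest, so the groups overlapped. With doxycycline the same gene stood at 17468, 22629 and 14470.4 in the TFEB line and at 127, 83.9 and 79.8 in the EV line, a log2 difference of 7.55. Without doxycycline the log2 difference, TFEB minus EV, was -0.20 (SE 0.44, 95% interval -1.09 to 0.70, limma adjusted p = 0.773). On expressed-gene scaling it was 0.46 (SE 0.22, interval 0.0022 to 0.92, limma adjusted p = 0.503). In nuclear reads it was at 13.1, 11.1 and 13.99 RPM in EV vehicle replicates 1 to 3 and 20.2, 13.8 and 17.2 RPM in TFEB vehicle replicates 1 to 3, where TFEB vehicle replicate 2 lay below EV vehicle replicate 3, so the groups overlapped on this scale too. Within each of the 3 same-numbered pairs the TFEB library was the higher in RPM, as it was for 23.9% of all tested genes. On the deposited scale it was the higher in 1 of the 3 pairs. On expressed-gene scaling the 3 TFEB libraries lay above the 3 EV libraries, as they did for 13.4% of all tested genes, while 1.42% lay below. Genes with a vehicle mean of 50 to under 200, the level of TFEB, had a median difference of 0.29 on that scaling. The direction of the TFEB difference therefore depended on the scaling, and it passed the threshold under neither. At 2.64 RPM per kb, TFEB lay above 45 of the 48 markers of other cell types and above their median of 0.977.

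The other family members were compared in the same way. TFE3 had deposited values of 205, 377 and 164 in EV vehicle and 116, 166 and 155 in TFEB vehicle and a log2 difference of -0.69 (SE 0.45), or -0.032 (SE 0.20) on expressed-gene scaling. MITF had a difference of -0.29 (SE 0.33), or 0.37 (SE 0.35), and TFEC of -0.51 (SE 0.32), or 0.14 (SE 0.34). None of the 4 passed the threshold under either scaling, with limma adjusted p values from 0.452 to 0.963. TFE3 was highest in EV vehicle replicate 2, the library with the highest level of expressed genes.

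**Figure D2:**
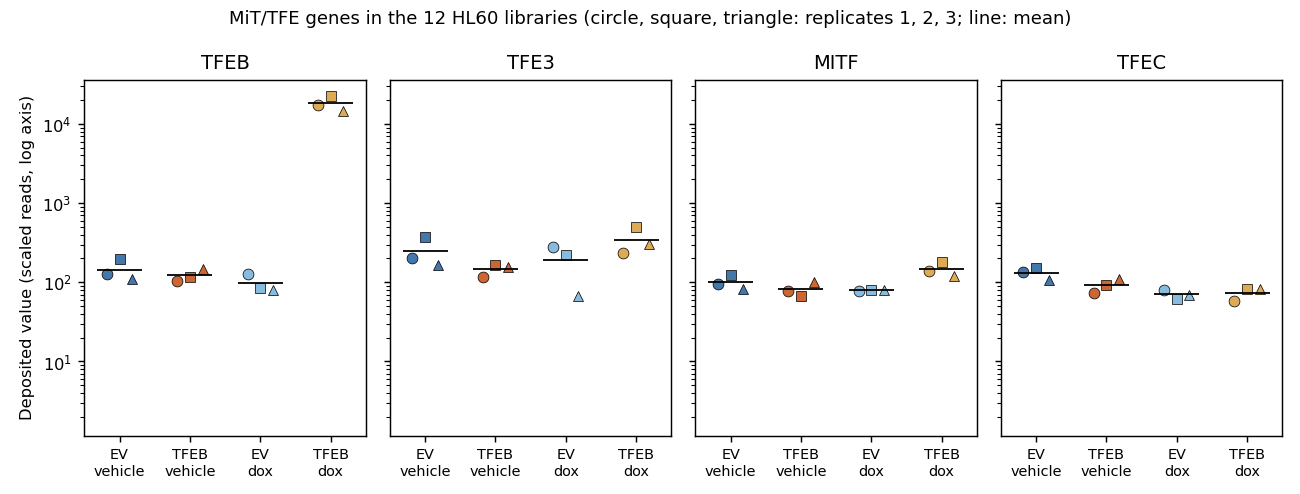
Deposited values (reads divided by 1 factor per library, log axis) of the 4 MiT/TFE genes in each of the 12 libraries, by group; the line is the mean of 3 replicates. TFEB lies between 110.4 and 196 in EV vehicle and between 105 and 149 in TFEB vehicle, and at 14470.4 or more only with doxycycline in the TFEB line.

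Across all genes no difference between the lines passed the threshold without doxycycline. Of 23128 genes tested with limma, 0 (0%) had an adjusted p under 0.05, and the smallest adjusted p was 0.452. At an unadjusted p under 0.05, 1084 were higher in TFEB vehicle and 670 lower. On expressed-gene scaling 0 passed, with 1992 higher and 12 lower at an unadjusted p under 0.05. The read-based tests edgeR and DESeq2 also called 0 genes, with 2711 higher and 43 lower, and 1343 higher and 560 lower, at an unadjusted p under 0.05. On the deposited scale the 3 TFEB libraries lay above the 3 EV libraries in 6.97% of genes and below in 8.67%. A missed threshold does not show that the lines were alike: the 95% intervals had a median half-width of 1.27 log2 units for genes under 50 and of 0.31 for genes of 1000 and over on expressed-gene scaling, and of 0.73 and 1.11 on the deposited scale.

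The difference varied with level. Genes with a vehicle mean under 50 had a median log2 difference of 0.22 on the deposited scale and 0.83 on expressed-gene scaling. For genes of 50 to under 200 these were -0.37 and 0.29, for genes of 200 to under 1000 they were -0.65 and 0.0079, and for genes of 1000 and over -0.71 and -0.045. By these medians, low genes were higher relative to abundant genes in TFEB vehicle under both scalings. In the libraries, genes under 200 took 6.06, 4.74 and 7.77% of the values in EV vehicle replicates 1 to 3 and 11.1, 7.19 and 6.62% in TFEB vehicle replicates 1 to 3. The lines overlapped, and in replicate 3 the EV library was the higher. The extremes were TFEB vehicle replicate 1, with the fewest reads, and EV vehicle replicate 2, with the most. The part of depth or library make-up in the differences of low genes was not tested.

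**Figure D3:**
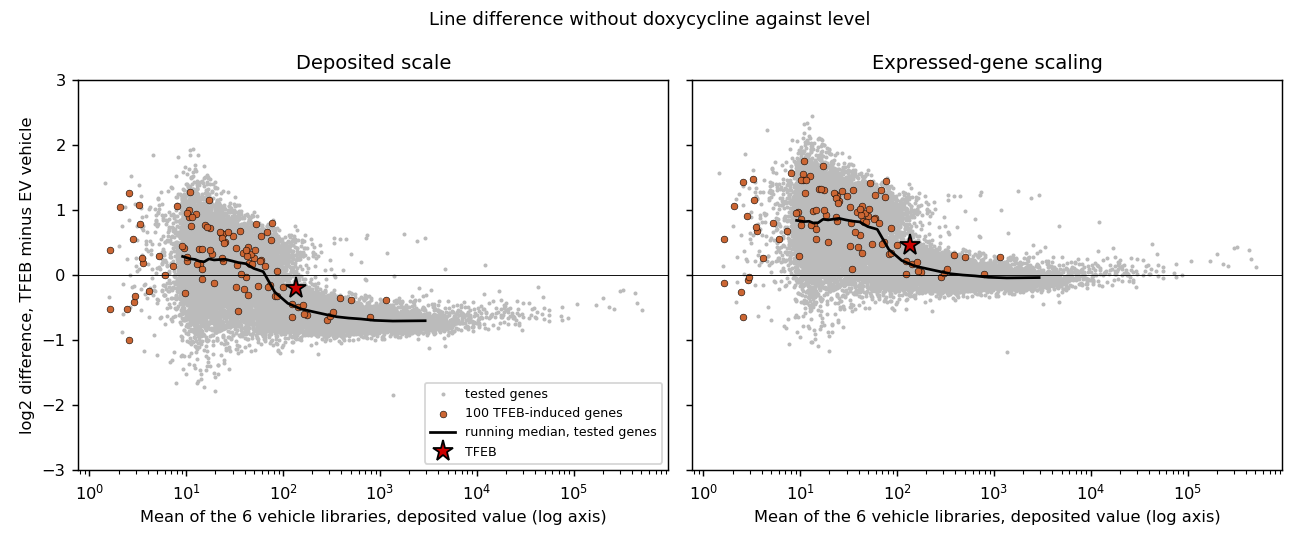
Log2 difference, TFEB minus EV vehicle, against the mean of the 6 vehicle libraries (log axis) for tested genes (grey), their running median (black), the 100 TFEB-induced genes (orange) and TFEB (star), on the deposited scale and on expressed-gene scaling. The running median falls with level on both, and the scalings differ by a near-constant shift that moves the median of all tested genes from -0.25 to 0.38.

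Vector leak was looked for in genes that induced TFEB raises. The genes called higher in TFEB doxycycline than in EV doxycycline under each scaling, with a mean of at least 50, numbered 2299, and the 100 with the largest rise (log2 difference 5.99 to 10.1) were taken. The doxycycline libraries enter the vehicle comparison through the shared estimate of the spread and through the means that choose the genes tested and the genes used for scaling. In the vehicle libraries 0 of the 100 passed the threshold. Their median log2 difference was 0.24 on the deposited scale, with 66 of 100 above 0, and 0.83 on expressed-gene scaling, with 94 of 100 above 0. Over all tested genes the median on expressed-gene scaling was 0.38 and 78.9% were above 0. The 3 TFEB libraries lay above the 3 EV libraries in 19 of the 100, against 13.4% of all genes. Over all 2299 induced genes the median on expressed-gene scaling was 0.039. Of the 2299, 59.6% were above 0 and 8.53% had the 3 TFEB libraries above the 3 EV libraries. The levels are unlike: 1026 of the 2299 had a vehicle mean of 200 to under 1000, against 5078 of 23128 tested. By level, the medians of every induced gene and of all tested genes were 0.81 and 0.83 between 10 and 50. Between 50 and 200 they were 0.22 and 0.29, between 200 and 1000 they were 0.010 and 0.0079, and from 1000 up -0.047 and -0.045. The shares that lay above were, in that order, 22.4% and 19.6%, 16.3% and 14.2%, 4.39% and 3.60%, and 1.42% and 1.41%. Of the 100, 21 had a vehicle mean under 10 and entered the test only through the doxycycline libraries. Without these, genes of like vehicle level were compared, with p values from the 6 vehicle libraries alone because the doxycycline libraries chose the 100. Between 10 and 50 the median was 1.01 for the 49 induced and 0.83 for all 10781. At an unadjusted p under 0.05, 8 of the 49 (16.3%) were higher, against 10.01%, and in 9 (18.4%) the TFEB libraries lay above, against 19.6%. Between 50 and 200 the median was 0.50 for the 23 induced and 0.29 for all 4490. Of the 23, 6 (26.1%) were higher at an unadjusted p under 0.05, against 15.7%, and 8 (34.8%) lay above, against 14.2%. Over every induced gene between 50 and 200 these shares were 11.1% and 16.3% of 467. No gene passed the adjusted threshold in that fit.

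The 10 largest rises under induction, which include 1 pseudogene and 2 clone-named genes, mostly had vehicle values under 50. TM4SF19, a tetraspan membrane protein, had deposited values of 5.85, 2.98 and 5.81 in EV vehicle and 14.6, 8.84 and 9.93 in TFEB vehicle. The TFEB libraries were all above the EV libraries for it, with a log2 difference of 1.06 (SE 0.30) and 1.57 (SE 0.50) on expressed-gene scaling. TM4SF19 had a vehicle mean under 10, so it entered the test only through the doxycycline libraries, which also share in its SE. Among all tested genes with a vehicle mean under 50, 19.4% had the TFEB libraries above on expressed-gene scaling. The stress cytokine GDF15 had values of 10.5, 8.93 and 18.4 in EV vehicle and 18.3, 12.9 and 35.8 in TFEB vehicle, with replicate 3 the highest in each line. ATP6V0D2, a subunit of the lysosomal proton pump, had values of 12.9, 7.93 and 12.6 in EV vehicle and 12.8, 10.4 and 23.8 in TFEB vehicle, a range that overlapped. The secretory trypsin inhibitor SPINK1 had values of 8.20, 6.94 and 7.75 in EV vehicle and 21.004, 7.23 and 23.8 in TFEB vehicle, and the lines overlapped through TFEB vehicle replicate 2. RGCC, a cell-cycle regulator, had values of 79.6, 101 and 52.3 in EV vehicle and 58.4, 75.5 and 69.5 in TFEB vehicle. On expressed-gene scaling these were 66.5, 45.8 and 52.5 in EV vehicle and 93.6, 73.98 and 66.8 in TFEB vehicle, so the lines overlapped on the deposited scale and not on this one. The chemokines CCL18 and IL8 differed by 0.22 (SE 0.35) and -0.33 (SE 0.49), and IL8 in TFEB vehicle ranged from 38.6 in replicate 2 to 137 in replicate 3. In the TFEB doxycycline libraries the mean was 12414 for GDF15 and 11267 for RGCC.

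CTSD (cathepsin D), a lysosomal aspartic protease, was the sole one of the 100 with a vehicle mean of 1000 or more and is shown for that reason, chosen after its values were seen. Its deposited values were 1221, 2208 and 616 in EV vehicle and 678, 1173 and 946 in TFEB vehicle, with a log2 difference of -0.38 (SE 0.59) and 0.28 (SE 0.21) on expressed-gene scaling. The lines overlapped, and the limma adjusted p was 0.669 and 0.548. Its RefSeq promoter (250 bases before to 50 after the start, GRCh38.p14, chr11:1763878-1764177, minus strand) is printed with the E-box CACGTG in capitals.

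CTSD promoter: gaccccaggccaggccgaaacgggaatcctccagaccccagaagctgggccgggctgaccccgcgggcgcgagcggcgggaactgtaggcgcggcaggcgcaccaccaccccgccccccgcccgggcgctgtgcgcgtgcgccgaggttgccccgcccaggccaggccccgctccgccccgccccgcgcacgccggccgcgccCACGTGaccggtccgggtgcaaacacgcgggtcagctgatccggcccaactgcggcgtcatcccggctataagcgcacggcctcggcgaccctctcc

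Of the 46 promoters matched by symbol outside chromosome 8, 4 hold CACGTG (8.70%), against 7.26% of all 35116 promoters of the same length. The palindrome reads alike on both strands. The longer TCACGTGA, which contains it, is in 0 of the 46 and in 0.980% of all. A match is a description of the letters only.

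Lysosome and autophagy genes were counted as lists chosen with earlier results known. In the 5 lists (V-ATPase, lysosomal hydrolases, lysosomal membrane proteins, autophagy, and folliculin with the Rag GTPases and Ragulator), 0 of 133 tested members passed the threshold. At an unadjusted p under 0.05, 8 of 133 (6.02%) were higher on expressed-gene scaling and 0 lower, against 8.61% of all genes. The 3 TFEB libraries lay above in 11 (8.27%), against 13.4%, and below in 0, against 1.42%. Of all tested genes under 50, 12.7% were higher at that p and 19.4% lay above. For genes of 200 to under 1000 these shares were 0.689% and 3.60%. In each of the 5 lists most members found had a mean of at least 200. The all-gene shares are therefore not those of genes of like level, and a match by level was not made. The median differences were -0.62 on the deposited scale and 0.042 on expressed-gene scaling for the hydrolases and -0.55 on the deposited scale and 0.11 on expressed-gene scaling for autophagy genes. The V-ATPase median was -0.73 on the deposited scale and -0.065 on expressed-gene scaling. These stood beside -0.65 and 0.0079 for all genes of 200 to under 1000. TPP1 differed by 0.0037 (SE 0.13) and LAPTM5 by -0.024 (SE 0.25) on expressed-gene scaling, and SQSTM1 by 0.12 (SE 0.13).

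Among these, 2 low genes are named after their values were seen. LAMP3 (DC-LAMP), an inducible lysosomal membrane protein, had deposited values of 11.7, 13.9 and 22.3 in EV vehicle and 35.6, 40.2 and 39.7 in TFEB vehicle. The lowest TFEB library was above the highest EV library, the log2 difference was 1.27 (SE 0.30), and it was 1.88 (SE 0.50) on expressed-gene scaling. Its limma adjusted p was 0.452, and it had the smallest p in edgeR, where the smallest adjusted p was 0.409. ATG9B, an autophagy membrane protein, had values of 36.3, 42.6 and 31.96 in EV vehicle and 54.8, 66.7 and 47.7 in TFEB vehicle, with 0.59 (SE 0.31) and 1.24 (SE 0.33). Both lie in the range of values where the median of all genes was positive.

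Lineage genes did not pass the threshold in any list. Across all 35 lists 0 of 698 tested members were called, under the deposited scale or expressed-gene scaling. The median was above 0 in 6 lists and below in 29 on the deposited scale, and above in 26 and below in 9 on expressed-gene scaling, so the scaling set the direction. Azurophil granule genes had a median of -0.66 on the deposited scale and 0.0033 on expressed-gene scaling, and MPO a difference of -0.66 (SE 0.62) and 1.3e-05 (SE 0.29). ELANE differed by -0.68 (SE 0.62) and SPI1 by -0.64 (SE 0.57), with -0.017 and 0.021 on expressed-gene scaling. CEBPA had deposited values of 28.1, 45.6 and 25.2 in EV vehicle and 13.7, 32.1 and 39.7 in TFEB vehicle, with a difference of -0.28 (SE 0.44). MYC, NRAS and CDKN2A differed by -0.093, -0.075 and 0.053 on expressed-gene scaling, each within 1 SE of 0. The markers of other cell types, mostly low genes, had medians on expressed-gene scaling from 0.77 for T and NK cells to 1.12 for erythroid and megakaryocytic cells, beside 0.83 for all genes under 50.

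Stress, metabolic and translation lists gave the same count of 0. Members of the integrated stress response had a median of -0.045 on expressed-gene scaling, with ATF4 at -0.031 (SE 0.16) and ATF5 at 0.18 (SE 0.19). The cholesterol pathway had 0.0063, glycolysis -0.0091, heat shock chaperones -0.082 and DNA replication -0.072. The summed level of DNA replication genes ran from 3757 to 3878 RPM in EV vehicle and from 3448 to 3532 RPM in TFEB vehicle, ranges that did not overlap. On expressed-gene scaling, which is another scale, 1 of its 31 members was itself apart and lower, against 1.42% of all tested genes. Such summed RPM ranges were apart in 3 of the 35 lists. The share of all genes apart in RPM is not given here, so whether 3 lists are more than usual cannot be said. The others were isocitrate dehydrogenases and DNA methylation, at 1583 to 1701 RPM in EV vehicle and 1484 to 1532 RPM in TFEB vehicle, and B-cell markers, at 12.7 to 23.3 RPM in EV vehicle and 24.8 to 42.3 RPM in TFEB vehicle. Cytosolic ribosomal proteins had a median of 0.10. Mitochondrially encoded mRNAs had a median of 0.24, with MT-CO1 at 0.13 (SE 0.81). TFRC differed by -0.24 (SE 0.16). The granulocyte-macrophage receptor chain CSF2RA was lower in all 3 TFEB libraries on expressed-gene scaling, with -0.42 (SE 0.21, limma adjusted p = 0.503). CSF2RA was chosen after its values were seen. Of all tested genes 1.42% were lower in this way, and the share rose with level. It was 16 of 10781 genes between 10 and 50, 153 of 5078 between 200 and 1000 and 124 of 1979 from 1000 up.

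Replicate 3 stood apart from replicates 1 and 2 in both lines, by more than same-numbered libraries of the 2 lines differed. Over 6691 expressed genes, the root mean square log2 difference was 0.19 between the replicate-3 libraries of the lines (correlation 0.989), 0.23 between those of replicate 1 and 0.18 between those of replicate 2. Within a line, replicate 3 differed from replicates 1 and 2 by 0.30 and 0.32 in EV and by 0.36 and 0.33 in TFEB. EV replicate 1 and TFEB replicate 2 were the closest pair, at 0.18 (correlation 0.991). These correlations run across genes of a shared cell line, and genes are not independent replicates. Both replicate-3 libraries were the 2 highest or the 2 lowest of the 6 in 45.03% of the 6691 genes, and in 71 of the 100 most variable.

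**Figure D4:**
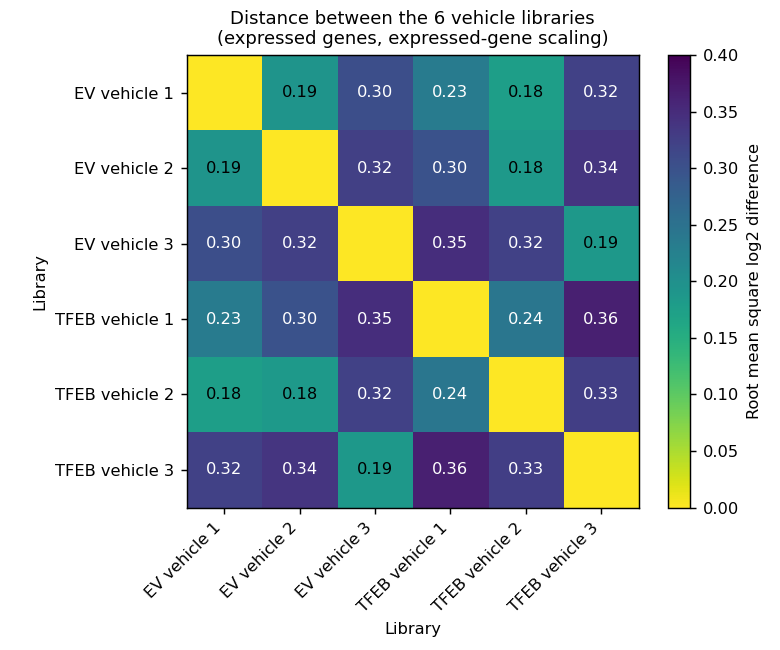
Root mean square log2 difference between each pair of the 6 vehicle libraries over 6691 expressed genes on expressed-gene scaling. The replicate-3 libraries of both lines are 0.19 apart and lie 0.30 to 0.36 from the other libraries.

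Genes of both directions made up this pattern. They were picked as the most variable expressed genes, so their values are a description. IDI1, an enzyme of isoprenoid synthesis, had scaled values of 206, 271 and 795 in EV vehicle and 142, 257 and 734 in TFEB vehicle. The nucleosome-binding HMGN5 had 560.3, 565 and 1101 in EV vehicle and 481, 481 and 1749 in TFEB vehicle, and the translation factor EIF5B had 2176, 2226 and 4468 in EV vehicle and 1942, 2012 and 5479.7 in TFEB vehicle. All 3 were highest in replicate 3 of both lines. In the other direction, the ribosomal protein RPL30 had 28392, 27335 and 10884 in EV vehicle and 26197, 28282 and 12605 in TFEB vehicle. The snoRNA host SNHG3 had 8059.7, 6748 and 1949 in EV vehicle and 6813, 10446 and 2499 in TFEB vehicle, and the histone HIST1H2BL had 3094, 2275 and 1029 in EV vehicle and 2433, 2330.4 and 1028 in TFEB vehicle. Another set had its extremes elsewhere. The long genes MUC16, SYNE1 and TTN were lowest in EV vehicle replicate 2, the library with the most reads, and highest in TFEB vehicle replicate 1, the one with the fewest. TTN had scaled values of 566, 186 and 727 in EV vehicle and 1347, 622 and 542 in TFEB vehicle. The labels do not say what sets replicate 3 apart, and this was not tested.

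**Figure D5:**
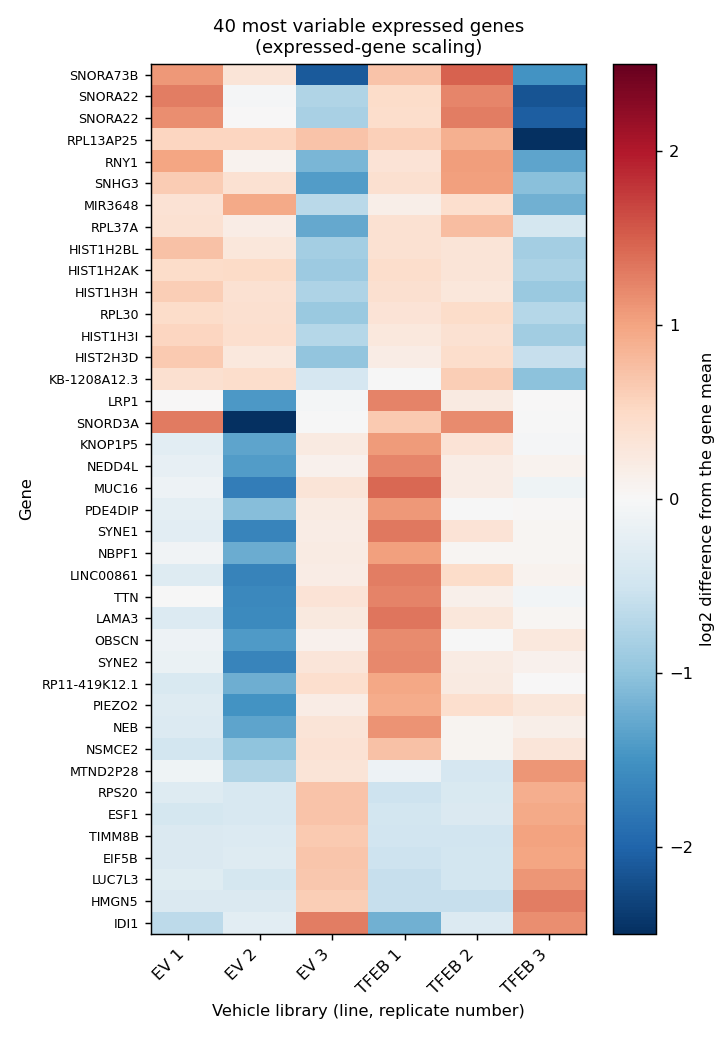
Log2 difference from the gene mean in each of the 6 vehicle libraries for the 40 most variable expressed genes, on expressed-gene scaling, ordered by replicate 3. Most genes at the top are low and genes at the bottom high in replicate 3 of both lines, while most genes between them are low in EV 2 and high in TFEB 1. RPL13AP25, near the top, is low in TFEB 3 alone.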

How the data were processed

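RNA sequencing of total RNA from 12 HL60 libraries was read, 3 in each of 4 groups, made with a NuGEN Ovation FFPE kit per the labels' protocols. The submitters' processing notes name the tools STAR (2.5.3a) and HTSeq (0.6.1). Build, annotation and strandedness were not given in the sources used here. Therefore antisense, overlapping and near-identical genes are uncertain. The deposited table holds 1 normalized signal per gene and library. Its values are whole multiples of 1 step per library (100% at a tolerance of 0.01), from which reads were recovered. For 2 libraries (EV vehicle replicate 2, TFEB vehicle replicate 3) that step was within 1% of 1. Their deposited values were still not whole numbers, for example 13.8842 and 39.7328 for LAMP3.

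Of 57820 genes, the 23128 with a mean of at least 10 over the 12 libraries entered a limma fit (version 3.58.1, R 4.3.3) of log2(value + 1): 1 mean per group, variance trend, two-sided, Benjamini-Hochberg threshold 0.05. The pseudocount of 1 understates the change of low genes. Scalings were the deposited one, TMM, equal nuclear totals, upper quartile and expressed genes. edgeR 4.0.16 and DESeq2 1.42.0 on recovered reads, filters, pseudocounts, a replicate block and each library left out were alternatives. The procedure was tested on simulated data. Same-numbered replicates of the 2 lines deviated together (correlations 0.453, 0.595 and 0.699 over 6691 genes), so the numbers were taken to pair the samples. Pairs of other numbers gave -0.642 to 0.314, the highest for EV replicate 1 with TFEB replicate 2. The main fit held no replicate block, so its SEs, intervals and p values leave this pairing out. The rule named 11 genes that are given here whatever their result, the 25 most abundant, the 10 largest rises under induction and the 3 highest members of each list, of which those of most interest are printed. A few genes that the rule names are not reported here. It asked for line differences among called genes, and there were 0. The members and the 35 lists (723 of 724 members found by symbol) were chosen with earlier results of these data known. Levels per kb, expressed-gene scaling with the block, with the 6 vehicle libraries alone or for the interaction, the comparison of induced genes by vehicle level and the same-numbered pairs in RPM were added after seeing the data. No column was left out.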

Additional observations from a re-analysis of the deposited data

Results flagged for a closer look

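On the deposited scale the line difference with doxycycline differed from that with vehicle for 7 of the 11 genes read for it. These were calls of the interaction term of the limma fit. The share of all tested genes called by this term is not given here, so whether the count is particular to these genes cannot be said. The mean level of expressed genes was 0.618 in EV doxycycline and 1.49 in TFEB doxycycline, against 1.47 in EV vehicle and 0.896 in TFEB vehicle. The line difference with doxycycline minus that with vehicle was 7.74 for TFEB (SE 0.63, adjusted p = 6.70e-13), 1.73 for TFE3 (SE 0.64, adjusted p = 0.0315), 1.14 for MITF (SE 0.46, adjusted p = 0.0496), 4.04 for NRAS (SE 0.75, adjusted p = 5.44e-05), 2.86 for ELANE (SE 0.87, adjusted p = 0.0104), 2.07 for SPI1 (SE 0.80, adjusted p = 0.0416) and 2.75 for CEBPA (SE 0.62, adjusted p = 0.000713). Most of these rested on the scale. On expressed-gene scaling, an alternative added after seeing the data, the limma values that passed were 5.71 for TFEB (adjusted p = 3.67e-09) and 2.01 for NRAS (adjusted p = 1.62e-07). The others of the 7 did not pass, at -0.30 for TFE3 (adjusted p = 0.348), -0.88 for MITF (adjusted p = 0.122), 0.83 for ELANE (adjusted p = 0.107), 0.025 for SPI1 (adjusted p = 0.893) and 0.87 for CEBPA (adjusted p = 0.302), so TFE3 and MITF changed sign. On that scaling TFEC, CDKN2A and MPO passed instead, with negative values, at -1.44 for TFEC (adjusted p = 0.0176), -1.997 for CDKN2A (adjusted p = 2.71e-05) and -2.40 for MPO (adjusted p = 0.000302).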

How the results depend on the processing

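No call between the lines was made under any of 29 other settings: 1073 counts of called genes, over all genes and over 35 lists, were each 0. With the replicate block the TFEB difference was -0.20 (adjusted p = 0.774 over 12 libraries) and 0.46 on expressed-gene scaling (adjusted p = 0.417), and the block changed no call. Directions moved with the scaling, and the cause was not tested. Equal nuclear totals turned the differences of TFEB (0.41), MITF (0.31), TFEC (0.091) and CEBPA (0.30) positive. Expressed-gene scaling did so for TFEB (0.46), MITF (0.37), TFEC (0.14), CDKN2A (0.053), MPO (1.3e-05), SPI1 (0.021) and CEBPA (0.36). The replicate block and the 6 vehicle libraries alone gave the same differences. The balanced design fixes this in advance, so they are no further check of direction. edgeR gave positive values for TFEB (0.24), MITF (0.16) and CEBPA (0.23). The median of the 100 induced genes moved to 0.78 with equal nuclear totals and to 0.83 on expressed-gene scaling.

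Leaving out 1 library at a time gave -0.37 to 0.041 for TFEB and -0.57 to 0.16 for CEBPA. TFEB was positive without EV vehicle replicate 2 (0.041) and CEBPA without TFEB vehicle replicate 1 (0.16). The induced median ranged from 0.12 to 0.41. With all genes in the denominator the level of MPO was 6480.1 and not 8633 RPM. Depth limits the low genes, where 1 read was worth 0.0563 to 0.175 RPM.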
